A study of Mus musculus with 12 samples.

Results

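The loss of Ezh2 alone was examined in c-Kit+ cells of the bone marrow, which are enriched for hematopoietic stem and progenitor cells (HSPCs), by single-cell RNA sequencing with 10x Genomics 3' chemistry. The comparison covers 6 of the 12 libraries of the series, namely 3 E2-KO libraries (Mx1-Cre+;Ezh2 f/f) and 3 WT libraries (Mx1-Cre-negative), taken by the genotype on their labels. All mice were of a C57BL/6 background and received 5 injections of pIpC, a double-stranded RNA that induces Mx1-Cre, at 8 to 12 weeks of age per the labels (the study's text gives a younger age), so the controls carried the injections but not the recombinase. Per the labels, marrow was flushed from femurs and tibias, whereas the study's methods describe crushing of these and further bones, and it was enriched magnetically for c-Kit. The time points were T1, at 2 weeks from pIpC, T2, at 2 months, and T3, at 4 months, and each genotype gave 1 library at each of them. Mx1-Cre is driven by an interferon-inducible promoter that is also active outside the blood, and neither the deleted Ezh2 exons nor the number of mice behind a library is given in the sources used here. The question was which lineage genes, pathways and developmental genes differ when Ezh2 is deleted on its own, and at which time point.

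EZH2 is the main catalytic subunit of Polycomb repressive complex 2 (PRC2), which methylates histone H3 on lysine 27 and thereby keeps developmental regulators and lineage-foreign genes silent. PRC1, whose subunits include BMI1, binds this mark and adds a further repressive layer, and the CDK inhibitor locus Cdkn2a is a classical target of both complexes. In blood, PRC2 is known for restraining fetal and stem cell programs and is needed in early B cell development, and EZH1 can replace EZH2 in part.

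In WT, 2350, 2844 and 2389 cells were profiled at T1, T2 and T3, with totals of 16.8, 23.6 and 19.5 M UMIs, while E2-KO cells numbered 2445, 2944 and 2586, with 19, 21.6 and 12.6 M UMIs. A UMI (unique molecular identifier) stands for 1 captured RNA molecule, and CPM are the UMIs of a gene after scaling the total of its library or class to 1000000. E2-KO T3 was the shallowest, with a median of 3780.5 UMIs per cell against 5514 to 6975.5 in the other 5. No cell was shared between the 6 libraries. By Xist and Ddx3y, both T1 and both T2 libraries were male and both T3 libraries were female, so sex was matched within each pair and changed together with time. Kit, the gene of the sorted receptor, had a level of 48.2 to 58.5 CPM in WT and 51.8 to 60.4 CPM in E2-KO, and many cells carried little of it, as late granulocyte-like cells had 11.2 to 19.2 CPM in WT against 102 to 154 CPM in stem cell-like cells. How pure each enrichment was, was not tested.

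Ezh2 (ENSMUSG00000029687, mm10 chromosome 6, 47530139 to 47595341, minus strand) was lower in every E2-KO library. In the order T1, T2 and T3, its level was 133, 103 and 103 CPM in WT and 27.7, 27.9 and 34.6 CPM in E2-KO. The groups did not overlap, and E2-KO kept 20.9%, 27% and 33.6% of the WT level at the 3 time points, with 95% counting intervals of 19 to 23%, 24.6 to 29.5% and 30.2 to 37.3%. The change over all cells was -1.94 on the log2 scale (SE 0.16, edgeR quasi-likelihood adjusted p = 4.7e-05). Ezh2 fell in 8 of the 8 classes of cells in which it was tested, with log2 changes from -1.37 in late erythroid-like to -2.42 in promonocyte-like cells. B lymphoid-like cells had the highest level, with 408, 385 and 376 CPM in WT and 77.3, 74.2 and 83.2 CPM in E2-KO. A 3' tag count need not follow the deleted share of alleles, since a transcript that lacks some exons can keep its 3' end.

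Over all cells, E2-KO differed from WT in 623 of 12371 tested genes (5.04%), of which 360 rose (2.91%) and 263 fell (2.13%), while 2435 genes had an unadjusted p under 0.05. The median log2 change of all tested genes was -0.02. A gene was tested when at least 3 of the 6 libraries reached 0.519 CPM. Of the 360 raised genes 122 reached this level in fewer than 3 WT libraries, and of the 263 lowered genes 18 did so in E2-KO, so that they were tested only through the group in which they were higher and had to differ. Sums over all cells cannot tell fewer cells of a type from less RNA per cell. Therefore the fit was repeated within classes of cells named from marker genes, and once with every class drawn to the same number of cells in each library (matched make-up), where 560 of 11768 genes were called (4.76%). With matched make-up 417 genes rose and 143 fell, a share of 74.5% higher calls against 57.8% over all cells, and 338 genes were called in both fits. The time points stand in for replicates, so an adjusted p measures how alike the pairs were and not how mice of 1 age vary.

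**Figure D1:**
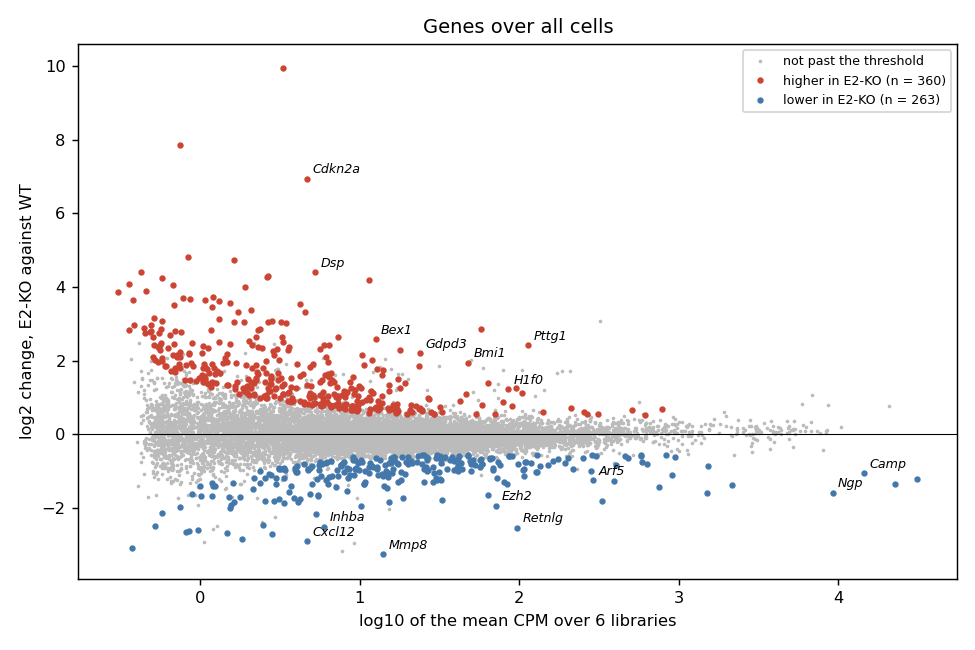
Each point is a gene, with the log10 of its mean CPM over the 6 libraries on the x axis and its log2 change in E2-KO against WT on the y axis. The 360 raised and 263 lowered genes (adjusted p under 0.05) are coloured. Cdkn2a lies at 6.94 and Dsp at 4.40, the 2 points above Cdkn2a are genes with no UMI in WT, whose fitted change is no bound, and Mmp8 lies lowest at -3.26.

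Cdkn2a and Dsp were barely expressed in WT. Cdkn2a, which encodes the cell cycle inhibitors p16INK4a and p19ARF, had 0.119, 0.0846 and 0 CPM in WT and 6.11, 9.09 and 12.6 CPM in E2-KO. These values rest on 2, 2 and 0 UMIs in WT against 116, 196 and 159 UMIs in E2-KO, so the groups were far apart at each time point. The ratio was 51.4 at T1 (95% counting interval 13.9 to 429) and 107 at T2 (29.3 to 893), and at T3 Cdkn2a was at least 81.9-fold higher against a floor of 3 counts in the WT library, with a counting interval that starts at 65.8. The fitted log2 change was 6.94 (SE 0.43, adjusted p = 9.8e-06), but Cdkn2a passed the filter on low counts only through E2-KO, so that the counts and not this p carry the comparison. Dsp, which encodes the desmosome protein desmoplakin, had 0.238, 0.761 and 0.359 CPM in WT and 9.63, 12.1 and 8.47 CPM in E2-KO. All E2-KO libraries were above all WT libraries, with a log2 change of 4.40 (SE 0.28), and Dsp too passed the filter through E2-KO, so that no p is given.

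The promoters of Cdkn2a and Dsp are shown because these genes moved from near silence and because PRC2 is known to occupy CG-rich starts. They run from 250 bases before to 50 bases after the RefSeq start on GRCm38.p6, the mm10 build, with each CG in capitals, a motif that reads the same on both strands. Cdkn2a has 2 starts that share their 3' end, so that the tags counted here do not tell them apart. The first lies at chr4:89294570-89294869 and the second at chr4:89282143-89282442, both on the minus strand, and the Dsp promoter lies at chr13:38151044-38151343 on the plus strand.
Cdkn2a first start: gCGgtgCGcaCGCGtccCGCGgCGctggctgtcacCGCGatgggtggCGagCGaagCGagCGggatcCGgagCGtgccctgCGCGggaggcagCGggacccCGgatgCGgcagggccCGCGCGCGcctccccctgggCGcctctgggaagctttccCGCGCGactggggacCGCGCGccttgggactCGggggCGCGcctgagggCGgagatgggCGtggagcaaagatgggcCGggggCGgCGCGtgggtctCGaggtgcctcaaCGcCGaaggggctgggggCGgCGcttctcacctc
Cdkn2a second start: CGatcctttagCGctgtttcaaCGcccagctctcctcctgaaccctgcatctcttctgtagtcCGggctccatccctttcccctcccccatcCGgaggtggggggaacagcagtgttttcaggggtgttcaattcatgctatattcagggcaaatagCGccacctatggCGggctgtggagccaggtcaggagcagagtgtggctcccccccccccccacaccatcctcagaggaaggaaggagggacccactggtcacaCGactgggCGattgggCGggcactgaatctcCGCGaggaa
Dsp: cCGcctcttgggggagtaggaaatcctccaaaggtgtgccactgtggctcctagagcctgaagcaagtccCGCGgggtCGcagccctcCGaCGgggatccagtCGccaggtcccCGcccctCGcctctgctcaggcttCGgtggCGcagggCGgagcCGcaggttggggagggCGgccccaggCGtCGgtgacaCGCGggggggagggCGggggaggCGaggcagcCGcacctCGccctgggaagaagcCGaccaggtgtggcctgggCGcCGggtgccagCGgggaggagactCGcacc
They hold 45, 12 and 27 CG, and 1.93%, 39.6% and 15.5% of all RefSeq promoters considered hold as many, while 94.6% hold at least 1. These percentages cover promoters of genes tested here and of others alike. The 78.4% of tested genes with a matched promoter had a median of 20.75 CG (quartiles 13 to 28), a match too incomplete for a comparison. The counts are descriptions of the windows, and binding was not measured here.

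Bmi1 and Pttg1 were expressed in WT and rose further in E2-KO. Bmi1, the PRC1 subunit that is known to restrain Cdkn2a, had 21.9, 17.3 and 19.3 CPM in WT and 73.1, 77.8 and 78.3 CPM in E2-KO (log2 change 1.95, SE 0.15, adjusted p = 2.9e-05). Its values were tight within each genotype and did not overlap. Pttg1, which encodes securin, the inhibitor of sister chromatid separation, had 38.7, 37.5 and 29.1 CPM in WT and 215, 202 and 158 CPM in E2-KO (log2 change 2.42, SE 0.14, adjusted p = 6.8e-06). Other named genes that rose over all cells were Homer2, a scaffold protein of synapses (2.65), Bex1, a brain-expressed X-linked gene (2.58), Hdgfrp3 (2.42), Gkap1 (2.30), Gdpd3, a lipid phosphodiesterase (2.20), Lyrm7 (2.16), the Hox cofactor Pbx3 (2.01), Lysmd2 (1.97), Luzp1 (1.78), Ryk, a Wnt receptor (1.76), and Plekha8 (1.67). With matched make-up each of these genes stayed past the threshold. In leave-out fits that dropped 1 library or 1 time point, Bmi1 (1.89 to 2.06) and Pttg1 (2.39 to 2.46) were called in 9 of 9. The G12D libraries of the series carry NRas G12D and Mx1-Cre with Ezh2 intact. Their mean level was 139 CPM for Pttg1, 57.8 CPM for Gdpd3 and 15.2 CPM for Lyrm7, while Bmi1 was near its WT values there.

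Lowered genes were led by products of late granulocytes and by a few genes of other origin. Mmp8, the neutrophil collagenase, had 37.5, 13.7 and 25.0 CPM in WT and 2.84, 1.21 and 4.35 CPM in E2-KO, with no overlap (log2 change -3.26, SE 0.23, adjusted p = 3e-05). Inhba, which encodes a subunit of activin and inhibin, had 12.0, 9.13 and 9.27 CPM in WT and 2.53, 1.48 and 1.5 CPM in E2-KO, again with no overlap (-2.51, SE 0.20, adjusted p = 4e-05). Arf5, a small GTPase of vesicle transport, had 410, 437 and 370 CPM in WT and 175, 184 and 164 CPM in E2-KO (-1.25, SE 0.13, adjusted p = 0.00016). Pirb, an inhibitory receptor of myeloid cells (-1.79), Mrgpra2b (-1.53), Gm11713 (-1.19), Chil3 (-1.10), Clec4a2 (-1.02), Pi16 (-1.01), B230208H11Rik (-1.0), Rinl (-0.97), Vasp (-0.96), Dok2 (-0.96) and Tnnt1 (-0.94) also fell. With matched make-up, Mmp8 (-2.25), Inhba (-1.41) and Arf5 (-1.27) were still past the threshold, whereas Chil3 had a log2 change of 0.03 and Clec4a2 one of -0.27 (adjusted p = 0.91 and 0.25).

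**Figure D2:**
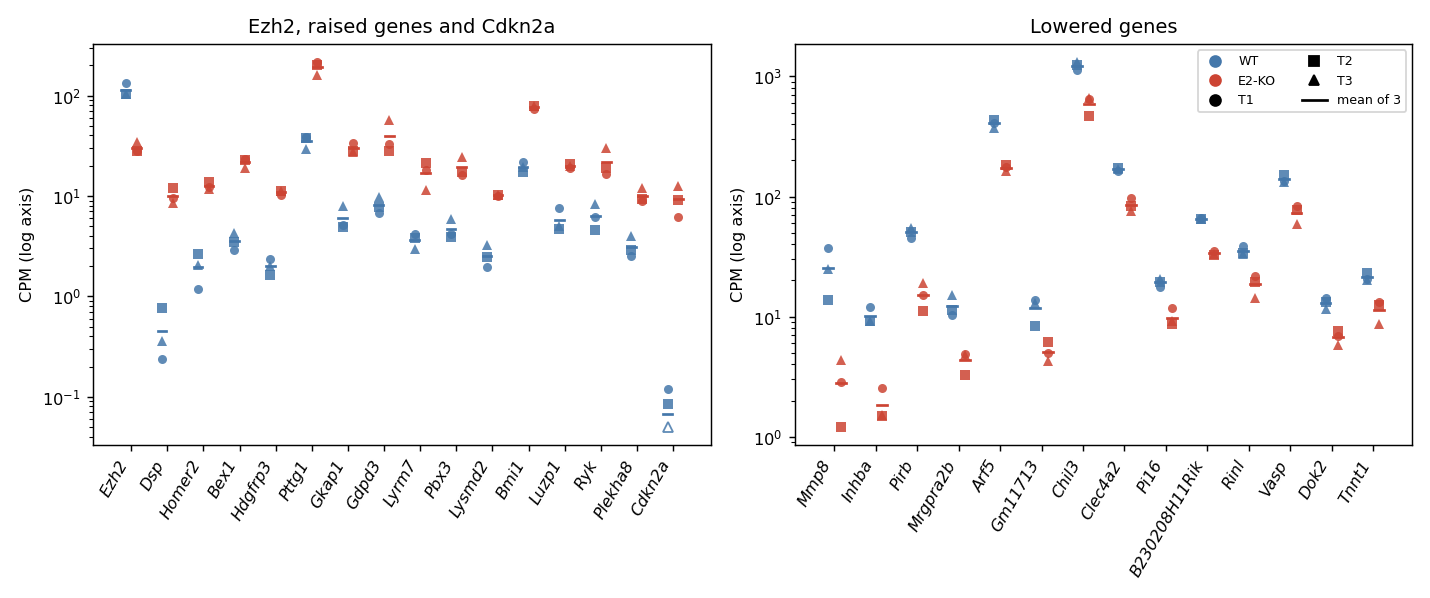
Points are the level (CPM, log axis) of Ezh2, the most raised genes and Cdkn2a (left) and of the most lowered genes (right) in each library, with bars at the mean of 3. WT and E2-KO libraries are separate for every gene drawn, for instance 17.3 to 21.9 against 73.1 to 78.3 CPM for Bmi1. The most raised and most lowered genes were chosen among called genes with the same direction at all 3 time points. That choice favours separate libraries, so their separation is a description and no result. Cdkn2a and Dsp were tested only through E2-KO. The open marker stands for the 0 of Cdkn2a in WT T3, drawn at 0.05.

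Of the chromatin regulators, 1 of 11 PRC2 genes changed, namely Ezh2, and 1 of 20 PRC1 genes rose, namely Bmi1. Their medians were 0.21 and 0.11 against -0.02 for all tested genes. Of 9 H3K27 demethylases and opposing methyltransferases, Kdm6b, an H3K27 demethylase, fell (-0.73, adjusted p = 0.043) and passed in 6 of 16 alternative fits. Among 6 tested CDK inhibitors Cdkn2a and Cdkn1a were called higher, against 2.91% of all genes, Cdkn2a with the limit given above. Cdkn1a, which encodes p21 and is also a p53 target, had 12.1, 9.09 and 5.12 CPM in WT and 20.1, 23.1 and 22.9 CPM in E2-KO (1.35, SE 0.24, adjusted p = 0.013), and the groups did not overlap. Of 20 p53 targets 3 rose, against 2.91% of all genes, and none fell, namely Cdkn1a, the apoptosis gene Pmaip1 (1.57) and Zmat3 (1.30). Linker histone H1f0, with 50.6, 57.9 and 41.2 CPM in WT and 129, 145 and 89.7 CPM in E2-KO, rose by 1.23 (SE 0.14, adjusted p = 0.00031). The variant histone genes H2afy2 (1.49) and Hist3h2ba (1.26) rose as well, while Hist1h2bc fell (-0.58).

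Developmental genes outside blood were mostly not detected deeply enough to test. Of 91 developmental transcription factors 16 were tested and none was called, and the 75 others had 174 UMIs in WT and 226 UMIs in E2-KO in all, with 29 of them at 0 in both. Sox4, a factor of lymphoid and neural progenitors, had 74.9, 48.8 and 49.3 CPM in WT and 51.7, 52.0 and 50.6 CPM in E2-KO (-0.17, adjusted p = 0.59). Lmo1, a LIM domain factor, had 35.2, 38.1 and 17.4 CPM in WT and 42.2, 42.6 and 23.3 CPM in E2-KO (0.24, adjusted p = 0.36). Within promonocyte-like cells Lmo1 rose (0.94, adjusted p = 0.00018) and Sox4 fell (-1.04, adjusted p = 0.001). Of 42 Hox cluster genes and cofactors 13 were tested and Pbx3 rose alone, with 4.22, 3.93 and 5.94 CPM in WT and 16.3, 17.3 and 24.5 CPM in E2-KO. Hoxa4 had a log2 change of 1.42 and missed the threshold (adjusted p = 0.054). In the list of Wnt, Notch, BMP and TGF-beta components 4 of 27 tested genes rose, against 2.91% of all genes, namely the BMP receptor Bmpr1a (2.43) and the Wnt receptors Fzd3 (1.93), Fzd6 (1.5) and Fzd5 (1.26), and Inhba fell. Fzd3, with 6, 15 and 14 UMIs in WT and 35, 56 and 28 in E2-KO, was tested only through E2-KO, and Fzd5 lost its call in 11 of 16 alternative fits. Bmpr1a had 0.832, 1.27 and 3.89 CPM in WT and 8.48, 8.30 and 12.9 CPM in E2-KO (SE 0.28, adjusted p = 0.00051). Among 24 tested imprinted genes Peg10, Sgce (1.18) and Grb10 (1.13) were called higher and Tspan32 fell (-1.13), against 2.91% higher and 2.13% lower over all genes, and Sgce lost its call in 10 of 16 alternative fits. Peg10 had 4, 5 and 2 UMIs in WT and 18, 29 and 22 in E2-KO and was tested only through E2-KO.

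The fetal and oncofetal axis comprised genes of fetal stem cells such as Hmga2, Lin28b and the Igf2bp family. Over all cells it showed 1 higher call among 11 tested genes, against 2.91% higher over all genes. This was Plag1, a zinc finger activator of growth genes, with 1.07, 0.338 and 0.256 CPM in WT and 1.58, 1.62 and 2.45 CPM in E2-KO (log2 change 1.81). It was tested only through E2-KO, so that no p is given, and it lost its call in 9 of 16 alternative fits. With matched make-up 4 genes of the list were called higher and none lower, against 417 of 11768 genes called higher. Through which group these 4 passed the filter was not examined. Hmga2, a chromatin protein of fetal stem cells (chromosome 10, 120361275 to 120476469, minus strand), had 6.65, 1.27 and 1.28 CPM in WT and 8.05, 6.49 and 6.17 CPM in E2-KO over all cells. Its groups overlapped because WT T1 was high, and the log2 change of 1.47 did not pass (adjusted p = 0.16). Within HSC/MPP-like cells, which held 43.3 to 52.7% of its UMIs, Hmga2 had 71.4, 13.2 and 14.1 CPM in WT and 98.0, 78.5 and 76.3 CPM in E2-KO. There it passed the threshold, with a log2 change of 1.59 (SE 0.34, adjusted p = 0.039), and the 3 E2-KO libraries were above the 3 WT libraries. Lin28b was at 0 in all WT libraries and at 0.474, 0.510 and 1.42 CPM in E2-KO and was too low to test, and Igf2bp3 (0.08) and Igf2bp2 (-0.17) were not called over all cells, while Igf2bp3 rose within GMP/early GN-like cells (0.89, adjusted p = 0.04). Bcat1, which breaks down branched-chain amino acids, had 3.09, 1.06 and 0.410 CPM in WT and 3.84, 3.38 and 4.67 CPM in E2-KO (1.54, adjusted p = 0.22). Gem, a small GTPase (0.56, adjusted p = 0.34), and the receptor Flt3 (0.15, adjusted p = 0.74) were not called either.

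Cells were then sorted into classes by their nearest WT cell, and the share of late granulocyte-like cells (late GN) was lower in each E2-KO library. It was 28.0%, 30.7% and 36.6% of cells in WT and 13.3%, 10.8% and 14.5% in E2-KO, a mean difference of -18.9 percentage points (SD 3.79, n = 3 pairs). The share of early granulocytes and their progenitors (GMP/early GN) was higher, with 11.4%, 13.8% and 10.7% in WT and 19.7%, 21.3% and 14.3% in E2-KO. For both classes the WT and E2-KO libraries were separate, but 3 pairs cannot go below p = 0.25 in the exact two-sided sign-flip test. That is the value both classes gave. With a coarser clustering the late GN-like shares stayed apart, with 31.7 to 38.8% in WT and 14.2 to 18.1% in E2-KO. The GMP/early GN-like shares then overlapped, with 5.79 to 9.81% in WT and 8.47 to 13.7% in E2-KO. B lymphoid-like cells made up 9.87%, 5.20% and 0.670% of WT cells, only 16 cells at T3, and 12.8%, 13.6% and 12.4% of E2-KO cells. HSC/MPP-like cells were 5.91 to 7.49% in WT and 4.87 to 6.46% in E2-KO, with overlap. Megakaryocytic cells had 2.26 to 3.98% in WT and 2.13 to 2.62% in E2-KO, and late erythroid cells had 6.17 to 10.7% and 9.10 to 20.6%. Macrophage-like cells numbered 26, 10 and 8 in WT and 0, 3 and 1 in E2-KO. Markers of the late granulocyte class such as Mmp8 and Retnlg were lower within that class too, which limits how far its share can be compared.

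**Figure D3:**
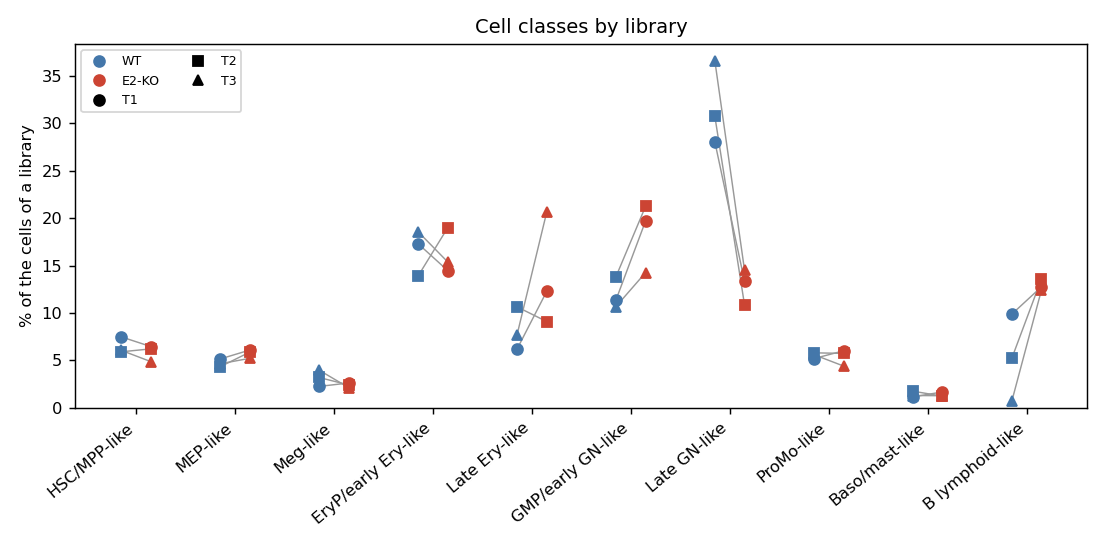
The y axis gives the share of the cells of a library (%) in each class, with WT on the left and E2-KO on the right of each pair and a line joining the libraries of 1 time point. Late GN-like cells lie at 28.0 to 36.6% in WT and at 10.8 to 14.5% in E2-KO, and the B lymphoid-like pair of T3 starts from 0.670%.

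Genes of secondary and tertiary granules were lower as well. Of 19 tested genes of secondary and tertiary granules, which store the antimicrobial proteins of maturing neutrophils, 17 fell and none rose over all cells, with a median of -0.99, against 2.13% lower over all genes. Their summed level was 41881, 43283 and 48529 CPM in WT and 21958, 17517 and 18906 CPM in E2-KO. Lactoferrin (Ltf) had 962, 1145 and 1174 CPM in WT and 445, 315 and 497 CPM in E2-KO (-1.44, edgeR adjusted p = 0.00044). Other members of the list that fell were Lcn2 (-1.59), Ngp (-1.58), Padi4 (-1.40) and Lyz2 (-1.39). Whether the product of each member, such as Padi4, is stored in these granules was not examined. With matched make-up 2 of these 19 genes fell, against 1.22% lower over all genes, and the median was 0.01, and Ltf had a log2 change of -0.18 (adjusted p = 0.40). Of 26 mature neutrophil genes 11 fell, among them Retnlg (-2.54), the formyl peptide receptor Fpr2 (-1.72), Pirb (-1.79), S100a9 (-1.35) and Mcemp1 (-1.28). Fpr1 (-1.97), another such receptor, was 1 of the 11 but was tested only through WT, and it lost its call in 9 of 15 alternative fits. With matched make-up 2 of the 26 fell and 2 rose. The list of primary granule genes, made earlier, had a median of 0.14, with 3 of 13 lower and none higher. The lowered members of the list were Hp (-0.99), Igsf6 (-0.81) and Serpinb1a (-0.68), the last of which lost its call in 9 of 16 alternative fits. Whether their products are stored in primary granules was not examined, so these calls are no fall of primary granule content. With matched make-up no gene of this list was called, and its median was -0.10.

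Within late GN-like cells, 474 of 7529 genes were called (6.3%), 314 higher and 160 lower. The secondary and tertiary granule list had 5 of 19 lower, none higher and a median of -0.10 there, against 2.13% lower over all genes of the class, and Ltf had -0.19 (adjusted p = 0.39). Of 23 tested mature neutrophil genes 7 were lower and 3 higher, with a median of -0.32. Mmp8 had 138, 54.4 and 88.8 CPM in WT and 20.7, 6.24 and 32.3 CPM in E2-KO (-2.42, SE 0.22, adjusted p = 5.9e-12), and Retnlg, a resistin-like hormone, had 811, 288 and 580 CPM against 246, 109 and 398 CPM (-1.33, SE 0.16, adjusted p = 6.3e-07). For Mmp8 the groups were separate, whereas for Retnlg the E2-KO T3 library lay above WT T2. Both genes led 1 of the 6 clusters of the class, which held 10.8%, 7.55% and 10.6% of its cells in WT and 4.6%, 3.14% and 9.07% in E2-KO, and the part of this make-up in their change was not tested. Inhba fell as well (-1.24, adjusted p = 3.1e-05). In the other direction Pttg1 rose from 13.1, 8.01 and 10.3 CPM to 226, 238 and 174 CPM (4.24, SE 0.19, adjusted p = 4.4e-26), and Bmi1 rose from 4.36, 5.54 and 5.37 CPM to 49.9, 52.0 and 52.1 CPM (3.20, SE 0.23, adjusted p = 5.1e-17). H1f0 (2.40), the granule protease Prtn3 (1.62) and metallothionein Mt1 (1.43) rose too. Pbx3, with 7, 10 and 12 UMIs in WT and 26, 19 and 18 in E2-KO, was tested only through E2-KO in this class, as were 70 of the 314 higher calls, and 26 of the 160 lower calls were tested only through WT. Of the 474 genes, 346 were not called over all cells.

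Bmi1 was lower in the later classes of WT cells, while its levels in E2-KO cells were closer to each other. In WT, Bmi1 had 30.4 to 41.1 CPM in HSC/MPP-like, 17.2 to 27.2 in GMP/early GN-like and 4.36 to 5.54 in late GN-like cells, and 3.09 to 5.73 in late erythroid-like cells. In E2-KO the same classes had 58.8 to 71.6, 66.3 to 82.9, 49.9 to 52.1 and 42.0 to 52.9 CPM. The log2 changes were 0.90 in HSC/MPP-like cells (adjusted p = 0.068), and 1.88 and 3.20 in GMP/early GN-like and late GN-like cells, both past the threshold. In late erythroid-like cells Bmi1 had 4, 10 and 3 UMIs in WT and 76, 53 and 88 in E2-KO and was tested only through E2-KO, so that no p is given. Linker histone H1f0 had -0.13 in HSC/MPP-like cells (adjusted p = 0.83), 1.44 in GMP/early GN-like, 2.40 in late GN-like and 3.74 in late erythroid-like cells, where it went from 35.6, 29.2 and 13.4 CPM to 326, 384 and 183 CPM. Differences between classes were not tested. Cdkn1a had 8, 14 and 10 UMIs in early erythroid-like cells of WT and 13, 45 and 23 in those of E2-KO. In late erythroid-like cells it had 0, 1.72 and 3.09 CPM in WT, at most 3 UMIs a library, and 22.3, 20.6 and 33.0 CPM in E2-KO. In both classes it was tested only through E2-KO. Gdpd3 was close to silent in WT megakaryocyte-erythroid progenitor-like (MEP) cells, with 0, 0 and 1.05 CPM in WT and 55.9, 64.9 and 95.7 CPM in E2-KO.

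Early erythroid-like cells had 456 of 9722 genes called (4.69%), 330 of them higher, and late erythroid-like cells 165 of 5417 (3.05%). In promonocyte-like cells 164 of 8030 genes were called (2.04%), in GMP/early GN-like cells 125 of 9301 (1.34%), and in MEP-like cells 76 of 7003 (1.09%). HSC/MPP-like cells had 58 of 7297 (0.795%), megakaryocyte-like cells 39 of 4850 (0.804%), and basophil and mast cell-like cells 30 of 2732 (1.1%). In all, 1074 genes were called in at least 1 of the 9 classes, with 730 higher in each class that called them, 340 lower in each and 4 in both directions. Of 1073 higher calls summed over these classes 375 were of genes tested only through E2-KO, and of 514 lower calls 93 were of genes tested only through WT. In 37 genes the call was made in at least 5 classes. Arf5 (log2 change -1.51 to -0.94) and Pttg1 (1.57 to 4.24) were called in 9 of 9, and Gdpd3 in 8 of the 8 that tested it, though in MEP, HSC/MPP, megakaryocyte, early and late erythroid-like cells Gdpd3 had at most 7 UMIs in a WT library and was tested only through E2-KO, as was Pttg1 in basophil and mast cell-like cells. Cxcr4, the receptor for Cxcl12, was called higher in 7 classes, in 2 of them tested only through E2-KO, but missed the threshold over all cells (0.67, adjusted p = 0.083). Dsp had 0.578, 1.20 and 1.40 CPM in GMP/early GN-like cells of WT and 31.0, 35.5 and 32.7 CPM in those of E2-KO, where it was tested only through E2-KO and no p is given.

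Lcn2 was called lower in 9 of 9 classes and Ltf and Ngp in 8 of 9, with Lcn2 and Ltf tested only through WT in megakaryocyte-like and in basophil and mast cell-like cells. These are granule genes, and their RNA also appeared in classes that should lack it. In early erythroid-like cells the secondary and tertiary granule list summed to 2546, 1611 and 2400 CPM in WT and 938, 625 and 857 CPM in E2-KO, and 12 of 14 tested genes were lower, against 1.3% over all genes of the class. In megakaryocyte-like cells it summed to 11206, 1948 and 7683 CPM in WT and 987, 835 and 1069 CPM in E2-KO. Both sums were lower in each E2-KO library than in each WT library, as was the share of late GN-like cells, although WT T1, with the lowest share in WT, had the highest sums. The part of free RNA in them was not tested.

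**Figure D4:**
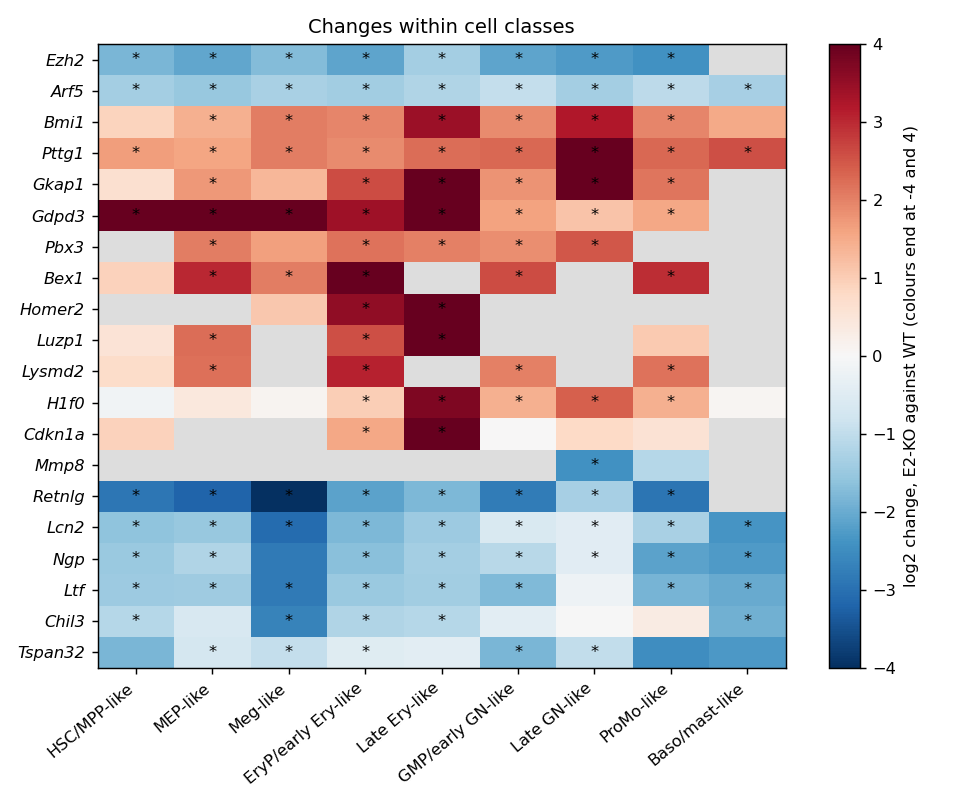
Colours give the log2 change in E2-KO against WT of each gene (rows) in each class (columns). A star marks an edgeR adjusted p under 0.05 and grey marks genes not tested. Some stars are of genes tested only through the group in which they were higher, which had to differ. Examples are Gdpd3 in MEP-like and Bmi1 in late erythroid-like cells, and such stars are no result. Ezh2 and Arf5 are blue and Pttg1 is red in each class where they were tested, Bmi1 deepens from 0.90 in HSC/MPP-like to 3.20 in late GN-like cells, and Ltf is near 0 (-0.19) in late GN-like cells.

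B lymphoid-like cells, whose markers include Vpreb1 of the surrogate light chain, held most of the Cdkn2a. They carried 84 of 116, 164 of 196 and 117 of 159 Cdkn2a UMIs in E2-KO (72.4%, 83.7% and 73.6%), while they were 12.9% of E2-KO cells on average. Their level was 1.51, 1.40 and 0 CPM in WT and 56.9, 88.8 and 97.3 CPM in E2-KO. In late GN-like cells no WT library held a Cdkn2a UMI and E2-KO had 6.08, 6.24 and 9.47 CPM, so that the gene was tested there only because of E2-KO and no p is given.

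Since WT T3 held only 16 of these cells, the class was fitted with a lower limit on cells, chosen after seeing the data. In that fit 293 of 7875 genes were called (3.72%), 192 higher and 101 lower. Without T1 there were 82 calls and without T2 112. Without T3 there were 151, of which 136 were among the 293. Genes at or near 0 in WT, such as Cdkn2a, Bex1 and Crabp1, were tested in this class only through E2-KO, and their values are given as a description. Cdkn2a had 2, 1 and 0 UMIs in WT and 84, 164 and 117 in E2-KO. Bex1 had 6.04, 0 and 0 CPM in WT and 63.0, 65.0 and 69.0 CPM in E2-KO, and its relatives Bex2 and Bex4 had 0 to 3.02 and 0 to 11.3 CPM in WT and 35.8 to 51.4 and 75.2 to 89.3 CPM in E2-KO. Crabp1, which binds retinoic acid in the cytoplasm, was at 0 in the 3 WT libraries and at 11.5, 23.8 and 15 CPM in E2-KO. Id1, an inhibitor of E proteins, had 5.28, 2.80 and 0 CPM in WT and 42.0, 41.7 and 23.3 CPM in E2-KO, and it too was tested only through E2-KO. Pttg1 (2.85), Mt1 (2.20), Bmi1 (1.75), the surface antigen Ly6d (1.37) and Cdkn1a (0.91) rose. Of the 192 higher calls 71 were of genes tested only through E2-KO, and of the 101 lower calls 19 were of genes tested only through WT.

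Some genes of B lineage identity were called in this class and others were not. Pax5, the factor that commits cells to the lineage, had 139, 143 and 177 CPM in WT and 225, 216 and 290 CPM in E2-KO (0.77, SE 0.18, adjusted p = 0.00098), with no overlap, but it was not called without T1 (adjusted p = 0.24) or without T2 (adjusted p = 0.058). Ebf1 (-0.25), Vpreb1 (0.19), Igll1 (0.12), Dntt (-0.15) and Rag1 (0.24) were not called. Ezh2 (-2.22), Tspan32 (-1.87), Apobec3 (-1.39), Arf5 (-1.26) and the class marker Lef1 (-0.83) fell. Id3, like Lef1 a leading gene of the WT cluster of this class, was called lower too. The granule genes Lcn2 (-2.57) and Ltf (-1.59), whose RNA these cells should lack, also fell. The chromatin protein Hmga1, with 42.3, 40.6 and 52.2 CPM in WT and 15.6, 10.8 and 3.33 CPM in E2-KO, was tested only through WT. Bex2, Bex4, Crabp1, Id1 and the other genes of this class that no list named were chosen after their values were seen.

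Other lineage lists are set against shares of 2.91% higher and 2.13% lower over all genes. Of 29 megakaryocyte and platelet genes 8 fell and none rose (median -0.56), and with matched make-up 4 fell. With all 12 libraries no gene of the list was called. Among the 8 were Clec1b (-1.83), Sdpr (-1.34), Treml1 (-1.33), Gp1bb (-1.11) and Pf4 (-0.94). Clec1b lost its call in 7 of 16 alternative fits, Treml1 in 6, Gp1bb in 5, Pf4 in 4 and Sdpr in 1. Within megakaryocyte-like cells none of 26 tested genes of the list was called, against 0.804% of all genes of the class, and their median was -0.28, with Pf4 at -0.08 (adjusted p = 0.94). Of 13 macrophage genes 4 fell, namely C1qa (-1.83), C1qc (-1.76), C1qb (-1.63) and Cd68 (-0.97). With matched make-up, which drew 0 macrophage-like cells, 3 of the list fell. C1qb was also lower within late erythroid-like cells (-1.45, edgeR adjusted p = 0.011), where C1qa and C1qc were tested only through WT. Macrophage-like cells were fewer as given above, and the part of this in the falls was not tested. Cxcl12, a chemokine and the 1 called gene of 8 in the stromal list, was a leading gene of the WT megakaryocyte-like cluster. It had 14.9, 6.13 and 3.74 CPM in WT and 2.11, 0.556 and 0.791 CPM in E2-KO (-2.90, edgeR adjusted p = 7.3e-05). Within megakaryocyte-like cells its log2 change was -4.58 (edgeR adjusted p = 0.68). Of 8 tested MHC class II genes H2-Aa (-1.07) and H2-Eb1 (-0.89) fell, and 2 of the list fell with matched make-up. Among 28 stem cell and MPP genes Cd27 fell (-0.62) and no gene rose, and the median was -0.01. Of 48 erythroid genes Mt1 rose over all cells (0.53, lost in 8 of 16 alternative fits) and Apoe fell (-0.83). Mt1 was called in neither early nor late erythroid-like cells (0.10 and -0.35). Apoe fell in the late class (-1.84) and was not called in the early one (-0.32). Of 20 monocyte genes Lgals3 (-1.34) and Ccl9 (-0.78) fell over all cells. Within promonocyte-like cells Ccl9 fell too (-1.15), whereas Lgals3 rose (0.65). Of 26 B lymphoid genes 1, Myl4, rose over all cells (1.19).

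Among signalling and metabolic lists, the TNF and NF-kB list had 5 of 28 genes lower, against 2.13% lower over all genes. They were Tnf (-1.19), Klf2 (-1.06), Nfkbie (-0.94, lost in 12 of 16 alternative fits), Ier2 (-0.74) and Nfkbia (-0.68). In this list 1 gene fell with matched make-up. The interferon list had 2 of 43 genes lower, Slfn2 (-1.0) and Slfn1, which was tested only through WT, with 68, 75 and 102 UMIs there and 12, 11 and 16 in E2-KO. MHC class I genes had 2 of 18 higher, against 2.91% over all genes, H2-Q6 (0.80) and Tap1 (0.55, lost in 11 of 16 alternative fits). Single calls were Pcna (0.60, lost in 9 of 16 alternative fits) among 40 S phase genes, Pttg1 among 48 mitosis genes and Ldhb (0.98) among 21 glycolysis genes. Further single calls were Stard4 (0.55, lost in 13 of 16) among 22 cholesterol synthesis genes and the nuclear receptor Rxra (1.38) among 32 myeloid transcription factors. Of 16 basophil, mast cell and eosinophil genes Ear2 fell (-1.14), with a log2 change of 0.02 at matched make-up, and of 15 dendritic cell genes the 2 MHC class II genes above were the calls. Among 28 cytokine receptors, 22 genes of the ERK pathway, 20 heat shock genes, 15 genes of branched-chain amino acid metabolism and 15 T and NK cell genes none passed the threshold.

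The time points were then compared on their own. At each time point a gene was counted when its CPM differed by more than 2-fold with at least 10 CPM in the higher library and a counting interval that excluded equality, a rule with 1 library a side and no test. At T1, 90 of 7378 genes (1.22%) were higher and 77 (1.04%) lower. At T2 it was 88 of 7269 (1.21%) and 71 (0.977%), and at T3 233 of 7349 (3.17%) and 207 (2.82%). In all 3, 24 genes were higher, among them Bmi1, Pttg1, Gkap1, Gdpd3, Pbx3, Homer2, Bex1, Lyrm7, Luzp1, Ryk and H1f0, and 27 were lower, among them Ezh2, Mmp8, Retnlg, Arf5, Ngp and S100a9. T3 had the most genes past the fold, and E2-KO T3 was also the shallowest library, held 20.6% late erythroid-like cells and faced a WT library with 0.670% B lymphoid-like cells. With matched make-up the 3 time points had 88, 65 and 272 genes in all.

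Some genes were past the fold at 1 time point and within 1.5-fold at the others. At T1 21 were higher and 5 lower. Among them was Prtn3, with 1042, 2168 and 1295 CPM in WT and 2996, 2684 and 1396 CPM in E2-KO, where WT T1 was the low library, and Fkbp11, Hsd17b1 and Ppic also had their lowest value in WT T1. Itgb3, with 13.8, 5.50 and 7.32 CPM in WT and 4.63, 5.33 and 7.44 CPM in E2-KO, and Hist1h1e, with 82.3, 27.6 and 73.6 CPM against 35.7, 40.7 and 91.6 CPM, were lower at T1 only. T2 had 6 higher, among them Gm26825 with 2.91, 3.26 and 3.33 CPM in WT and 3.47, 14.8 and 2.93 CPM in E2-KO, and 2 lower, Pram1 and Smim6. T3 had 75 higher and 105 lower. Dntt, the template-independent DNA polymerase of early lymphoid cells, had 78.1, 55.8 and 9.89 CPM in WT and 84.7, 83.7 and 102 CPM in E2-KO, and Id3 and Slamf6 had the same low value in WT T3, the library with 16 B lymphoid-like cells. Vps72, which had 40.6, 41.6 and 39.0 CPM in WT and 30.4, 37.1 and 10.3 CPM in E2-KO, was lower in E2-KO T3.

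The lists were described at each time point as well. Secondary and tertiary granule genes had medians of -0.79, -1.17 and -1.19 at T1, T2 and T3, so that their difference was there 2 weeks after pIpC. Primary granule genes had 1.11, -0.11 and -0.41. Of these, 7 of 13 were higher past the fold at T1, against 1.22% over all genes, none at T2, and 2 were lower at T3. B lymphoid genes had -0.01, 1.0 and 3.41, with 1, 12 and 20 of 26 higher past the fold and 1 lower at T1. Over all genes 1.22%, 1.21% and 3.17% were higher past the fold. The summed level of the B lymphoid genes was 1654, 1044 and 177 CPM in WT and 1960, 2232 and 2295 CPM in E2-KO. Erythroid genes had 0.09, 0.09 and 0.46. Cdkn1a had ratios of 0.73, 1.34 and 2.16 on the log2 scale and Plag1 had 0.56, 2.26 and 3.26, with a WT level that was lower at each later time point for both. No change with time was tested, since each genotype had 1 library per time point.

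**Figure D5:**
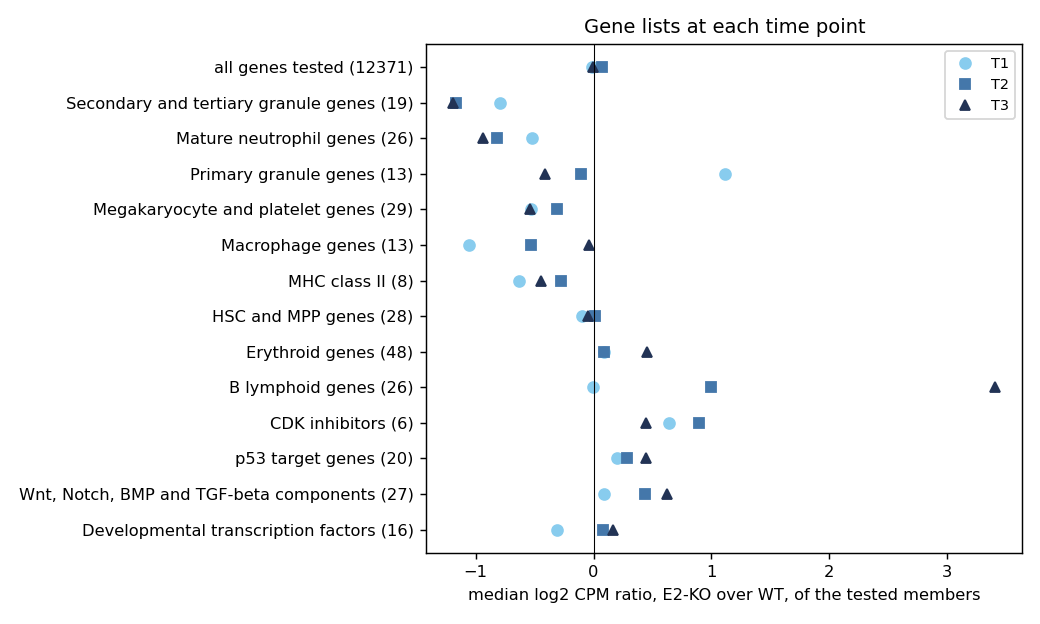
The x axis is the median log2 ratio of CPM, E2-KO over WT, of the tested members of each list (their number in brackets) at T1, T2 and T3. The granule list lies between -0.79 and -1.19 at all 3, while the B lymphoid list moves from -0.01 to 3.41.

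A further view started from silence in WT, a choice made after seeing the data. There were 16 tested genes with at most 3 UMIs in each WT library, Cdkn2a among them, and they passed the filter on low counts only through E2-KO, so that they had to differ and no result is drawn from their count. Cttnbp2, a cortactin-binding protein of neurons, had no UMI in WT and 73, 79 and 157 UMIs in E2-KO (3.84, 3.66 and 12.4 CPM), and 79.6% of them lay in early erythroid-like cells. Crabp1 had no UMI in WT and 18, 46 and 18 in E2-KO, with 96.3% in B lymphoid-like cells. Neuropeptide Y (Npy) lay to 89.7% in megakaryocyte-like cells, Sntg2 to 83.7% in early erythroid-like, Ackr3, an atypical chemokine receptor, to 80.4% in late erythroid-like and Adgrg5 to 57.4% in promonocyte-like cells. The class that held most UMIs thus differed from gene to gene.

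Genes near Ezh2 on chromosome 6 were looked at because a floxed allele can carry neighbouring DNA of the strain in which it was made. Within 20 Mb of Ezh2, 13 of 167 tested genes were called (7.78%, 10 higher and 3 lower), against 564 of 11374 on other chromosomes (4.96%) and 17 of 243 on chromosome 6 beyond 50 Mb (7.0%). Hotairm1, a long noncoding RNA of the Hoxa cluster at 4.6 Mb from Ezh2, had 0.713, 1.27 and 0.922 CPM in WT and 4.58, 3.99 and 6.81 CPM in E2-KO (2.31). Of the 10 higher genes 4 were tested only through E2-KO, namely Strip2, Podxl, Gm15050 and Npy. Plekha8 (1.67) and Smo, a Hedgehog signal transducer (0.90), rose, and Arf5, at 19.1 Mb, and Nod1 (-1.34) fell. Whether linked sequence had a part in these calls was not tested. Podxl had 0.238, 0.127 and 0.154 CPM in WT and 1.0, 1.02 and 8.86 CPM in E2-KO, so that T3 stood out, and it had at most 4 UMIs in a WT library. Npy is among the genes near silence in WT described above. The genes of this paragraph other than Arf5 and Plekha8, and those of the paragraph on silence in WT, were chosen after their values were seen.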

How the data were processed

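The authors aligned the reads of each library to mm10 and counted UMIs per gene with Cell Ranger, and removed cells with over 10% mitochondrial counts and doublets called by Scrublet. Files were assigned to time points by their sample labels, while the cell names inside them number the time points 1 lower. The deposited values were raw UMI counts per gene and cell for 27998 genes. Per the sources used here, 1 library stood for each genotype and time point. Members and gene lists (37 lists, 991 genes) were chosen with earlier results of these data known.

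UMIs were summed per library over all cells. The E2-KO and WT libraries were compared by edgeR (version 4.0.16 under R 4.3.3) after TMM scaling, filterByExpr and the robust quasi-likelihood test, with time point as a block, on 6 libraries with 2 residual degrees of freedom. Adjusted p-values are Benjamini-Hochberg over all genes tested, and 0.05 was the threshold. The block followed the rule that libraries of 1 time point form a pair. Deviations of same-time libraries from their group means correlated at -0.127, 0.222 and 0.261, so that the values themselves did not pair them. TMM factors lay between 0.95 and 1.05, and the totals were 12.6 to 23.6 M UMIs. Intervals on counts cover counting error only.

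WT cells were clustered (scanpy 1.11.5, Leiden, 50 principal components, 15 neighbours), clusters were named from marker lists as "-like" classes, and E2-KO cells took the class of the nearest WT cell. Summed counts per class were tested the same way. Shares were compared with an exact two-sided sign-flip test.

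Named genes were Ezh2 and the 15 most raised and 15 most lowered genes among those that were also called in a 12-library fit. These had 1 direction at all 3 time points and a mean of at least 10 CPM in the higher group. Up to 6 called members per list were added (2 of highest level where none was called). So were the 5 most raised and lowered genes past the fold at 1 time point only. A further 10 genes came from the study or from textbook knowledge, among them Flt3, which the study ties to NRas G12D. Some genes that these rules name are not reported here. Gene coordinates came from GENCODE M21 and promoters from RefSeq GRCm38.p6. A comparison of promoter CG content was void, since under 80% of genes had a matched promoter. Alternatives were DESeq2 1.42.0, other scaling and filters, all 12 libraries, no block, matched make-up and leaving out each library or time point.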

Additional observations from a re-analysis of the deposited data

Results flagged for a closer look

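Pttg1, Gdpd3, Lyrm7 and Dsp, which rose in E2-KO, were also above all WT libraries in the G12D libraries. These libraries carry NRas G12D and Mx1-Cre with Ezh2 intact. They were not tested against WT here, though they enter the 12-library fit. At T1, 2896 of the 5648 deposited G12D cells were also in the library that carries G12D and lacks Ezh2, and the values here rest on the other 2752. The mean level there was 139 CPM for Pttg1, 57.8 CPM for Gdpd3, 15.2 CPM for Lyrm7 and 2.85 CPM for Dsp. By library, Pttg1 had 162, 102 and 152 CPM and Dsp had 2.33, 3.24 and 2.97 CPM in G12D at T1, T2 and T3. Bmi1, with 15.5, 15.9 and 19.6 CPM, and Cdkn2a, with 0.254, 0.228 and 0.237 CPM, were near the WT values in these libraries. The WT libraries lack the recombinase, so that Cre and the loss of Ezh2 cannot be told apart in E2-KO against WT alone.

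Lgals3, a galectin of myeloid cells, rose within promonocyte-like cells (0.65 on the log2 scale) and fell within early erythroid-like cells (-1.47). The difference between the classes was not tested. Lgals3 was a leading gene of a WT late GN-like cluster. It was called lower in 4 and higher in 1 of the 6 classes that tested it. The part of free RNA in its erythroid fall was not tested.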

How the results depend on the processing

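Counts of called genes depended on the fit. Against 623 calls (360 higher, 263 lower), 12 libraries gave 204 (167 and 37) and no filter 1189 (653 and 536). No replicate block for the pairing by time gave 456, and matched make-up 143 lower. With 12 libraries the secondary and tertiary granule list had 2 lower calls, the mature neutrophil list 1, and neither had a higher call. No gene of the megakaryocyte and platelet, macrophage or MHC class II lists was called there. Leaving out 1 library or time point gave 445 to 977 calls, 280 to 600 higher and 165 to 377 lower, with 977 and 600 without WT replicate 1 and 165 without replicate 2. At matched make-up Chil3 was at 0.032 and Ear2 at 0.021, against falls over all cells. Without a time point the classes gave 12 to 26 calls for basophil and mast cell-like, 89 to 475 for late erythroid-like, 251 to 302 for late GN-like, 13 to 211 for MEP-like, 41 to 70 for megakaryocyte-like and 101 to 150 for promonocyte-like cells, and 82 to 151 for B lymphoid-like cells against 293. Genes past the fold at T1, T2 and T3 (167, 159 and 440) were 562, 426 and 1698 at 1.5-fold, 51, 49 and 128 at a minimum of 50 CPM, and 88, 65 and 272 at matched make-up. Within 20 Mb of Ezh2, 12 libraries gave 6 calls and DESeq2 7, against 13. Ezh2 was called in 16 of 16 alternatives (-2.11 to -1.77). Stard4 was lost in 13 of 16, Nfkbie in 12, Fzd5 and Tap1 in 11, Kdm6b and Sgce in 10, Pcna, Plag1 and Serpinb1a in 9, Hist1h2bc and Mt1 in 8, and Fpr1 in 9 of 15. The causes of these moves were not tested. With 1 library per genotype and time point, E2-KO T3 was the shallowest, which limits its low genes.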

Other observations

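A few further genes were chosen after their values were seen. RP23-6I17.1 had 11.5, 13.4 and 12.3 CPM in WT and 0.0526, 0.0464 and 9.50 CPM in E2-KO (edgeR adjusted p = 0.51), so that T3 was near WT. Gm7102 had 1.31, 1.23 and 0.820 CPM in WT and 32.2, 16.4 and 16.9 CPM in E2-KO (4.19, edgeR adjusted p = 4.4e-06), and Apol11b had 5.88, 15.5 and 17.7 CPM in WT and 62.5, 59.6 and 183 CPM in E2-KO (2.86, edgeR adjusted p = 0.018). Tspan32, a tetraspanin in an imprinted domain, had 145, 141 and 148 CPM in WT, 54.7, 66.2 and 84.8 CPM in E2-KO and 60.8, 73.4 and 78.8 CPM in G12D.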
